A study of Homo sapiens with 4 samples.

Results

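The genes described here are 10 regulators and markers of the epithelial-mesenchymal transition: the transcription factors SNAI1, SNAI2, ZEB1, ZEB2, TWIST1 and TWIST2, the cadherins CDH1 and CDH2, the filament protein VIM and the matrix protein FN1. They were taken by name, out of 20037 protein-coding genes of the RefSeq annotation of GRCh38.p14. Every called ATAC-seq peak within the span of a gene, or within 50 kb on either side of it, was counted to its locus. The 10 loci held 74 accessible regions, out of 53572 regions in the whole data set.

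Chromatin accessibility was measured in 786-O cells, an established line from a human clear cell renal carcinoma that lacks functional VHL, the ligase subunit that marks hypoxia-inducible factors for destruction. The ACSS2i group holds 2 libraries of cells kept for 24 h in 5 µM ACSS2i, read here as an inhibitor of ACSS2, the enzyme that makes acetyl-CoA from acetate. The labels do not name the compound further. The DMSO group holds 2 libraries of the same line given an equal volume of the solvent for 24 h. Nothing in the labels says that the replicates came from separate cultures, so a p-value here measures only the spread between these 4 libraries, which may be technical. Both groups are 1 line of a tumour without VHL and stand for no other kidney cell.

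An epithelial cell that enters this transition loosens its junctions and takes on a motile, mesenchymal form. The SNAI and ZEB zinc finger proteins bind E-box motifs in DNA and repress epithelial genes, of which CDH1 (E-cadherin) is the classic example. The TWIST proteins are basic helix-loop-helix factors that bind E-boxes as dimers with E proteins. Cells that complete the transition commonly express N-cadherin (CDH2), vimentin and fibronectin. Clear cell renal carcinoma is known for expressing vimentin beside keratins.

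The DNA just before the start of a gene was set beside the peaks called at that start, which may cover only part of it. RefSeq start positions and sequence were at hand for 6 of the 10 genes (VIM, FN1, ZEB1, ZEB2, TWIST2 and CDH2), which have 13 starts among them. Each line below gives the 250 bases before a start, 5′ to 3′ on the strand of the gene, in GRCh38.p14. FN1 is at chr2:215436069-215436318 on the minus strand and VIM at chr10:17227991-17228240 on the plus strand. These 2 are shown because a peak covered part of them in all 4 libraries. The ACSS2i peaks of FN1 ended at chr2:215436086 and chr2:215436120, short of the cAMP response element marked below, which both DMSO peaks covered. The ACSS2i peaks of VIM began at chr10:17228189 and chr10:17228185, so they held only the bases nearest the start. Every VIM summit there lay inside the gene. Of the 7 starts of ZEB1, numbered along its strand, starts 1 and 3 are at chr10:31318167-31318416 and chr10:31318966-31319215 on the plus strand, and they are the only ones of the 13 that hold an E-box. ZEB2, at chr2:144520120-144520369 on the minus strand, is shown because peaks covered all or part of it in both DMSO libraries alone. TWIST2, at chr2:238847835-238848084 on the plus strand, is shown because no library had a peak there. Capitals mark the E-box CAGGTG, or CACCTG on the other strand, and in FN1 the cAMP response element TGACGTCA.
FN1: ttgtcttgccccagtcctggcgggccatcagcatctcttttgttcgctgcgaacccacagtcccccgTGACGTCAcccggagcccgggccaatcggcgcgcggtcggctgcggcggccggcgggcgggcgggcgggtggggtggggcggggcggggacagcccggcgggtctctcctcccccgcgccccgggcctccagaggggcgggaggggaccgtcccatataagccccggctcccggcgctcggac
VIM: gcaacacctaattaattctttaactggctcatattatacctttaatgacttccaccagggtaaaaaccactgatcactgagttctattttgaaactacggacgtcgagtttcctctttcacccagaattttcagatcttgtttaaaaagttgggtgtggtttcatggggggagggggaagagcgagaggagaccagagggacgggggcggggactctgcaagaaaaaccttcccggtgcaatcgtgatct
ZEB1 start 1: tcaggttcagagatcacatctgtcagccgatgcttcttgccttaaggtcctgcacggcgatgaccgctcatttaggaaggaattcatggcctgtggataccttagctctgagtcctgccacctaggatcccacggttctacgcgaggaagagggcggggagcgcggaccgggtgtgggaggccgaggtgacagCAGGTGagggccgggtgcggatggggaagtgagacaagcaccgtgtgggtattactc
ZEB1 start 3: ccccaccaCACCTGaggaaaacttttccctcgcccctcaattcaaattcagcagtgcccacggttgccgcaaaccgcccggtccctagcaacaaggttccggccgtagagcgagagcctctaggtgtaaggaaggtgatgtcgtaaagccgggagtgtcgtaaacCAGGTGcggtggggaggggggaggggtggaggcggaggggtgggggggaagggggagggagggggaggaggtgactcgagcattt
ZEB2: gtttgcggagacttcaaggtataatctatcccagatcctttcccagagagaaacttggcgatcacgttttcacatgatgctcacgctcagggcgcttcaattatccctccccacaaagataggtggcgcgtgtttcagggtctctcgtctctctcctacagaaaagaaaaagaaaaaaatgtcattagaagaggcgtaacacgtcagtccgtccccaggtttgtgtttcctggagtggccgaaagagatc
TWIST2: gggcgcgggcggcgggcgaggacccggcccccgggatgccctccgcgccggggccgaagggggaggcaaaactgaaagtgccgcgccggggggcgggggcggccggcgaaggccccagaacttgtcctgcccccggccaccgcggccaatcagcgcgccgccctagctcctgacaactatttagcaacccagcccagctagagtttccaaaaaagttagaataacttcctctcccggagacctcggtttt

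The E-box CAGGTG lay 57 bp before start 1 of ZEB1 and 242 and 85 bp before start 3, counted from the first base of the match. Read on both strands, it was found in 17.5% of the 35116 promoter windows of the same 250 bp in the table. The palindrome TGACGTCA, found in 1.65% of the windows, lay 183 bp before the start of FN1. The CCAAT box, searched as CCAAT on both strands and present in 32.0% of the windows, lay 162 bp before the start of FN1 and 105 bp before that of TWIST2. The GC box, GGGCGG on either strand, was in 42.6% of the windows, and FN1 held 6 matches, some of which overlap each other, TWIST2 held 4, and VIM and both ZEB1 windows held 1 each. The HIF core ACGTG, on either strand in 18.5% of the windows, lay 188 and 51 bp before the start of ZEB2. The AP-1 site TGANTCA and the TATA box TATAAA were in 6.57% and 10.7% of the windows, and in none of the 6 shown. G and C made up 76.4% of the FN1 window, 68.4% of that of TWIST2, 48.0% of that of ZEB2 and 46.0% of that of VIM, beside a median of 58% over all windows. These matches are letters in the reference, not measured binding.

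The deposited data are lists of peaks, called in each library on its own. Fold is the authors' enrichment of a peak's summit over its local background in that library. The percentile given here ranks the authors' −log10 q of a peak among all peaks of the same library, with 100 the strongest. Both describe peaks within a list, and since the lists differ in length a difference in rank between libraries shows no change. Pairs of values are in the order of replicates 1 and 2. The lists held 16400 and 22044 peaks in the ACSS2i libraries, against 34696 and 50294 in the DMSO libraries. Median peak fold was 4.65 and 4.30 in the ACSS2i libraries, against 5.35 and 6.65 in the DMSO libraries. The genome background recovered from the fold and p columns was 2.32 and 3.16 stacked fragments in the ACSS2i libraries, against 2.06 and 1.75 in the DMSO libraries. The number of reads behind each list is unknown. The shorter lists and the higher background therefore move with treatment, and their part in every count below was not tested. In a pool of cells, fewer cells with an open site and a less open site in each cell cannot be told apart.

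Marker genes were checked by peaks within 1000 bp of either end of a gene. Of all 20037 protein-coding genes, 32.5% and 40.7% had such a peak in the ACSS2i libraries, against 52.6% and 60.0% in the DMSO libraries. The marker counts were not tested against these shares. Of 6 kidney tubule markers, 3 and 4 had such a peak in the ACSS2i libraries, against 4 and 4 in the DMSO libraries, and PAX2 and EMX2 had none in any library. Of 4 genes tied to 786-O and clear cell carcinoma, 1 and 2 had one in the ACSS2i libraries, against 2 and 2 in the DMSO libraries, and CA9 and NNMT had none. None of 5 endothelial markers had a peak at an end, CD68 alone of 5 immune markers had one, in all 4 libraries, and 0 and 0 of 5 stromal markers had one in the ACSS2i libraries, against 1 and 2 in the DMSO libraries.

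Across the 10 genes, VIM, SNAI2 and FN1 were open at a gene end in all 4 libraries. ZEB1, CDH2, ZEB2 and TWIST2 were open there in both DMSO libraries, and SNAI1 in DMSO replicate 2 alone. CDH1 and TWIST1 were closed at both ends in every library. In total 4 and 4 of the 10 genes had a gene-end peak in the ACSS2i libraries, against 7 and 8 in the DMSO libraries. Over all 20037 genes the shares were 32.5% and 40.7% in the ACSS2i libraries, against 52.6% and 60.0% in the DMSO libraries. The 7 genes open in both DMSO libraries compare with 52.3% of all genes. Of these 7, 2 (ZEB2 and TWIST2) had no gene-end peak in either ACSS2i library, beside 18.9% of all genes open in both DMSO libraries, and 3 kept one in both, beside 58.0%. Counts this small were not tested and say nothing particular about these genes. When each list was shortened to its 16400 strongest peaks, 2 of the 10 genes, VIM and SNAI2, were still open at an end in both DMSO libraries, and both were also open there in both ACSS2i libraries. Over all genes at that setting, 31.2% were open in both DMSO libraries, and 79.5% of these were open in all 4.

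**Figure D1:**
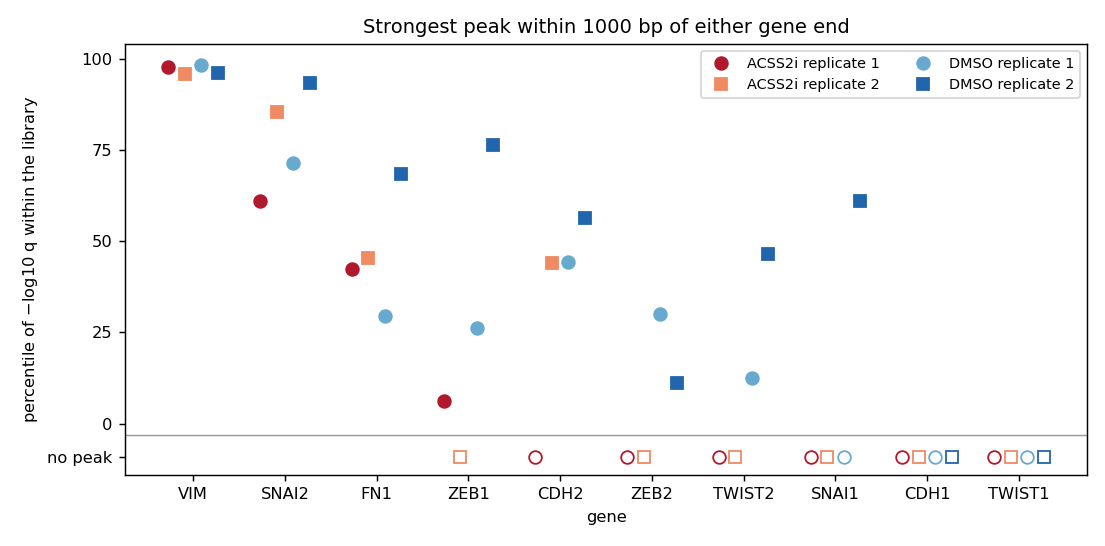
Percentile of −log10 q within the library (vertical axis) of the strongest peak within 1000 bp of either end of each gene, with ACSS2i replicates in red and orange left of DMSO replicates in blue; open symbols in the lower strip mark no peak. VIM lies between 95.7 and 98.3 in every library, whereas ZEB2 and TWIST2 have symbols in the strip for both ACSS2i libraries.

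SNAI2 (chr8:48917598-48921429), a zinc finger repressor also called Slug, had the strongest gene-end peak of the 6 transcription factors in each library. Its fold was 5.07 and 6.21 in the ACSS2i libraries, against 6.29 and 11.1 in the DMSO libraries. Its percentile was 61.1 and 85.4 in the ACSS2i libraries, against 71.5 and 93.4 in the DMSO libraries. The summit stacked 21 and 36 fragments in the ACSS2i libraries, against 35 and 98 in the DMSO libraries. Its local background was 3.34 and 4.96 in the ACSS2i libraries, against 4.73 and 7.90 in the DMSO libraries. On fold the groups were only just apart, with ACSS2i replicate 2 close to DMSO replicate 1, and on percentile they overlapped. The peak lay at the upper end of the gene, which is also within reach of the noncoding gene LOC107986942, so it cannot be given to one of them. The locus was otherwise bare: its second region was called in DMSO replicate 2 alone.

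SNAI1 (chr20:49982980-49988886), the related repressor Snail, had gene-end peaks only in DMSO replicate 2, with a fold of 5.71 and percentile 60.9 at its lower end and a fold of 3.18 and percentile 18.2 at its upper end. Inside the gene, just past the 1000 bp limit, a peak lay 1306 bp from the upper end in ACSS2i replicate 1 with a fold of 3.26. The same region was called 1315 bp from that end in DMSO replicate 1 with a fold of 3.37 and 1278 bp from it in DMSO replicate 2 with a fold of 3.55. SNAI1 thus counted as closed in 3 libraries, although 2 of these 3 had a weak peak inside the gene. The locus was the second richest of the 10, with 14 regions in all. The strongest, at chr20:50033753-50035109, lies 44867 bp past the upper end and was called in all 4 libraries, with a fold of 4.51 and 4.10 in the ACSS2i libraries, against 6.08 and 7.77 in the DMSO libraries. Its percentile was 74.2 and 82.0 in the ACSS2i libraries, against 92.7 and 96.1 in the DMSO libraries. A region at chr20:50029960-50030458, within 1000 bp of an end of the noncoding gene SCREEM1, was also called in all 4, with a fold of 3.75 and 3.50 in the ACSS2i libraries, against 3.31 and 4.29 in the DMSO libraries, which overlapped. A further one, at chr20:50019870-50020532, was called in both DMSO libraries alone, with folds of 5.80 and 5.82.

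ZEB1 (chr10:31318417-31529804), a zinc finger and homeodomain repressor, had a peak within 1000 bp of its start in ACSS2i replicate 1 with a fold of 3.48 and percentile 6.32, and none in ACSS2i replicate 2, against folds of 3.98 and 7.88 and percentiles 26.1 and 76.3 in the DMSO libraries. The ACSS2i peak was 236 bp wide and stacked 12 fragments over a local background of 2.73. The DMSO peaks stacked 19 and 66, over local backgrounds of 4.02 and 7.50. The narrow ACSS2i peak covered part of the window before start 2 of ZEB1 and neither of the 2 windows with E-boxes. The wider peaks of both DMSO libraries reached these 2 windows. The rest of this locus, around a gene of 211 kb, was nearly without peaks: no other region was called in both DMSO libraries, and 3 were called in DMSO replicate 2 alone.

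ZEB2 (chr2:144384081-144520119), the paralogue of ZEB1, had a weak peak within 1000 bp of its start with a fold of 3.63 and 2.67 and percentiles 30.1 and 11.0 in the DMSO libraries, and none in either ACSS2i library. Its strongest regions lay outside the gene or near its start. At chr2:144357854-144359376, 24705 bp past the lower end, the fold was 3.13 and 3.26 in the ACSS2i libraries, against 7.20 and 8.33 in the DMSO libraries. The percentile of this region was 1.72 and 11.5 in the ACSS2i libraries, against 77.6 and 65.4 in the DMSO libraries, so the groups did not overlap on either scale. Of the named distal regions called in all 4 libraries, it had the lowest ACSS2i percentiles. How many of all regions show such a gap was not counted, and median peak fold was lower in both ACSS2i lists. At chr2:144364775-144365649 the fold was 4.74 in ACSS2i replicate 2, with no peak in ACSS2i replicate 1, against 6.99 and 7.73 in the DMSO libraries. At chr2:144516789-144517787, 2332 bp inside the start, it was 3.18 in ACSS2i replicate 2, with no peak in ACSS2i replicate 1, against 3.61 and 6.09 in the DMSO libraries. Of the 7 regions of the ZEB2 locus called in both DMSO libraries, 4 were called in neither ACSS2i library and 1 in both. Over all such regions of the data set the shares were 33.5% and 42.2%. For the 4 ZEB2 regions in neither, the lower of the 2 DMSO percentiles ran from 11.0 to 31.1. Of all regions below the 25th by that measure, 76.7% were called in neither ACSS2i library, and between the 25th and 50th 47.4%.

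TWIST2 (chr2:238848085-238910534) had no peak over its start in any library, as stated for the window printed above. The gene-end peak behind its count lay 208 bp past the far end of the gene, with a fold of 3.57 and 6.38 and percentiles 12.4 and 46.4 in the DMSO libraries, and was absent from both ACSS2i libraries. The strongest region of the locus was inside the gene at chr2:238864250-238864919, 16.5 kb after the start. Its fold was 7.02 and 4.87 in the ACSS2i libraries, against 9.77 and 13.2 in the DMSO libraries, and its percentile 91.4 and 75.7 in the ACSS2i libraries, against 96.2 and 96.3 in the DMSO libraries. The groups did not overlap on either scale, and how many of all regions show such a gap was not counted. A region at chr2:238948277-238948935, 37743 bp past the far end, had a fold of 5.03 and 4.58 in the ACSS2i libraries, against 7.65 and 7.05 in the DMSO libraries. Another inside the gene, at chr2:238895922-238896224, was called in both DMSO libraries alone, with folds of 3.42 and 5.27. TWIST1 (chr7:19113047-19117636) had no peak within 50 kb in any library, and it was the only one of the 10 loci with none.

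CDH1 (chr16:68737292-68835537), the adhesion molecule of epithelial junctions and the classic target of the repressors above, was closed at both ends in every library. Regions were nonetheless called around and inside it. The strongest, at chr16:68707280-68708083, lies inside the neighbouring gene CDH3, 29209 bp from the lower end of CDH1, and was called in all 4 libraries. Its fold was 4.86 and 4.51 in the ACSS2i libraries, against 6.79 and 10.3 in the DMSO libraries, and its percentile 64.8 and 72.8 in the ACSS2i libraries, against 80.9 and 92.7 in the DMSO libraries. Inside CDH1, 53.3 kb above the lower end at chr16:68790193-68790954, the fold was 3.28 in ACSS2i replicate 2, with no peak in ACSS2i replicate 1, against 6.03 and 11.1 in the DMSO libraries. None of the 4 regions of this locus called in both DMSO libraries was absent from both ACSS2i libraries, beside 33.5% of all such regions. Only 1 was called in both, beside 42.2%.

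CDH2 (chr18:27932879-28177130), the N-cadherin of mesenchymal and neural cells, had the most regions, 15. Over its start, ACSS2i replicate 2 had a peak with a fold of 4.54 and percentile 43.9 and ACSS2i replicate 1 had none. DMSO replicate 1 had 3 peaks within 1000 bp of the start, with folds of 4.58, 3.46 and 4.15, and DMSO replicate 2 had 2, with folds of 4.63 and 5.47. The strongest region of the locus lay inside the gene, 61.9 kb from the start at chr18:28114585-28115809. Its fold was 8.41 and 8.06 in the ACSS2i libraries, against 8.85 and 12.5 in the DMSO libraries, and its percentile was 95.3 and 95.2 in the ACSS2i libraries, against 98.0 and 98.6 in the DMSO libraries. It was thus among the strongest peaks of every library, while the start of the gene was not. A region at chr18:27921536-27922643, beside an end of the antisense gene CDH2-AS1, had a fold of 4.35 and 4.08 in the ACSS2i libraries, against 7.78 and 11.2 in the DMSO libraries. Another, at chr18:28149963-28150708 inside the gene, was called in both DMSO libraries alone, with folds of 6.34 and 6.71. Of 8 CDH2 regions called in both DMSO libraries, 5 were called in neither ACSS2i library and 2 in both, beside 33.5% and 42.2% of all such regions. These 5 were weaker in DMSO: the lower of their 2 DMSO percentiles ran from 7.39 to 44.4. Of all regions below the 25th by that measure, 76.7% were called in neither ACSS2i library, and between the 25th and 50th 47.4%.

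VIM (chr10:17228241-17237593), which encodes the intermediate filament of mesenchymal cells, had the gene-end peak of the highest percentile of the 10 genes in every library. Over its start the fold was 7.87 and 6.96 in the ACSS2i libraries, against 8.03 and 8.33 in the DMSO libraries. The percentile was 97.8 and 95.7 in the ACSS2i libraries, against 98.3 and 95.9 in the DMSO libraries, so the groups overlapped on rank and were narrowly apart on fold. The summit stacked 45 and 51 fragments in the ACSS2i libraries, against 83 and 140 in the DMSO libraries. Its local background was also lower in ACSS2i, at 4.84 and 6.47, against 9.46 and 15.9 in the DMSO libraries. An end of the noncoding gene VIM-AS1 lies within 1000 bp of the same peak in every library. Just past the far end of VIM a second peak had a fold of 5.44 and 3.78 in the ACSS2i libraries, against 5.34 and 6.56 in the DMSO libraries, which overlapped. Of the 2 strongest regions between gene ends, the one at chr10:17206244-17207075 had a fold of 6.62 and 7.52 in the ACSS2i libraries, against 6.64 and 11.4 in the DMSO libraries. The other, at chr10:17213746-17216767, had 5.83 and 5.69 in the ACSS2i libraries, against 6.10 and 8.33 in the DMSO libraries. All 5 regions of the VIM locus called in both DMSO libraries were called in both ACSS2i libraries, beside 42.2% of all such regions. These 5 were strong in DMSO: the lower of their 2 DMSO percentiles ran from 71.5 to 95.9. Of all regions above the 75th by that measure, 93.0% were called in all 4 libraries, and between the 50th and 75th 53.2%.

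FN1 (chr2:215360865-215436068), which encodes fibronectin, had a peak over its start in all 4 libraries. The fold was 4.50 and 4.38 in the ACSS2i libraries, against 3.97 and 7.46 in the DMSO libraries, and the percentile was 42.4 and 45.4 in the ACSS2i libraries, against 29.4 and 68.5 in the DMSO libraries. Both ACSS2i values lay between the 2 DMSO values on each scale. An end of the noncoding gene FN1-DT lies within 1000 bp of this peak in every library. Inside the gene, the region at chr2:215409316-215410216 had a fold of 5.40 and 4.52 in the ACSS2i libraries, against 5.69 and 7.63 in the DMSO libraries. At chr2:215433706-215434724, 1344 bp inside the start, the fold was 4.38 in ACSS2i replicate 2, with no peak in ACSS2i replicate 1, against 4.64 and 5.92 in the DMSO libraries. A region inside the neighbouring gene ATIC, at chr2:215332732-215333429, had a fold of 5.01 and 5.56 in the ACSS2i libraries, against 7.98 and 10.0 in the DMSO libraries. Of 7 FN1 regions called in both DMSO libraries, 2 were called in neither ACSS2i library and 4 in both, beside 33.5% and 42.2% of all such regions.

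**Figure D2:**
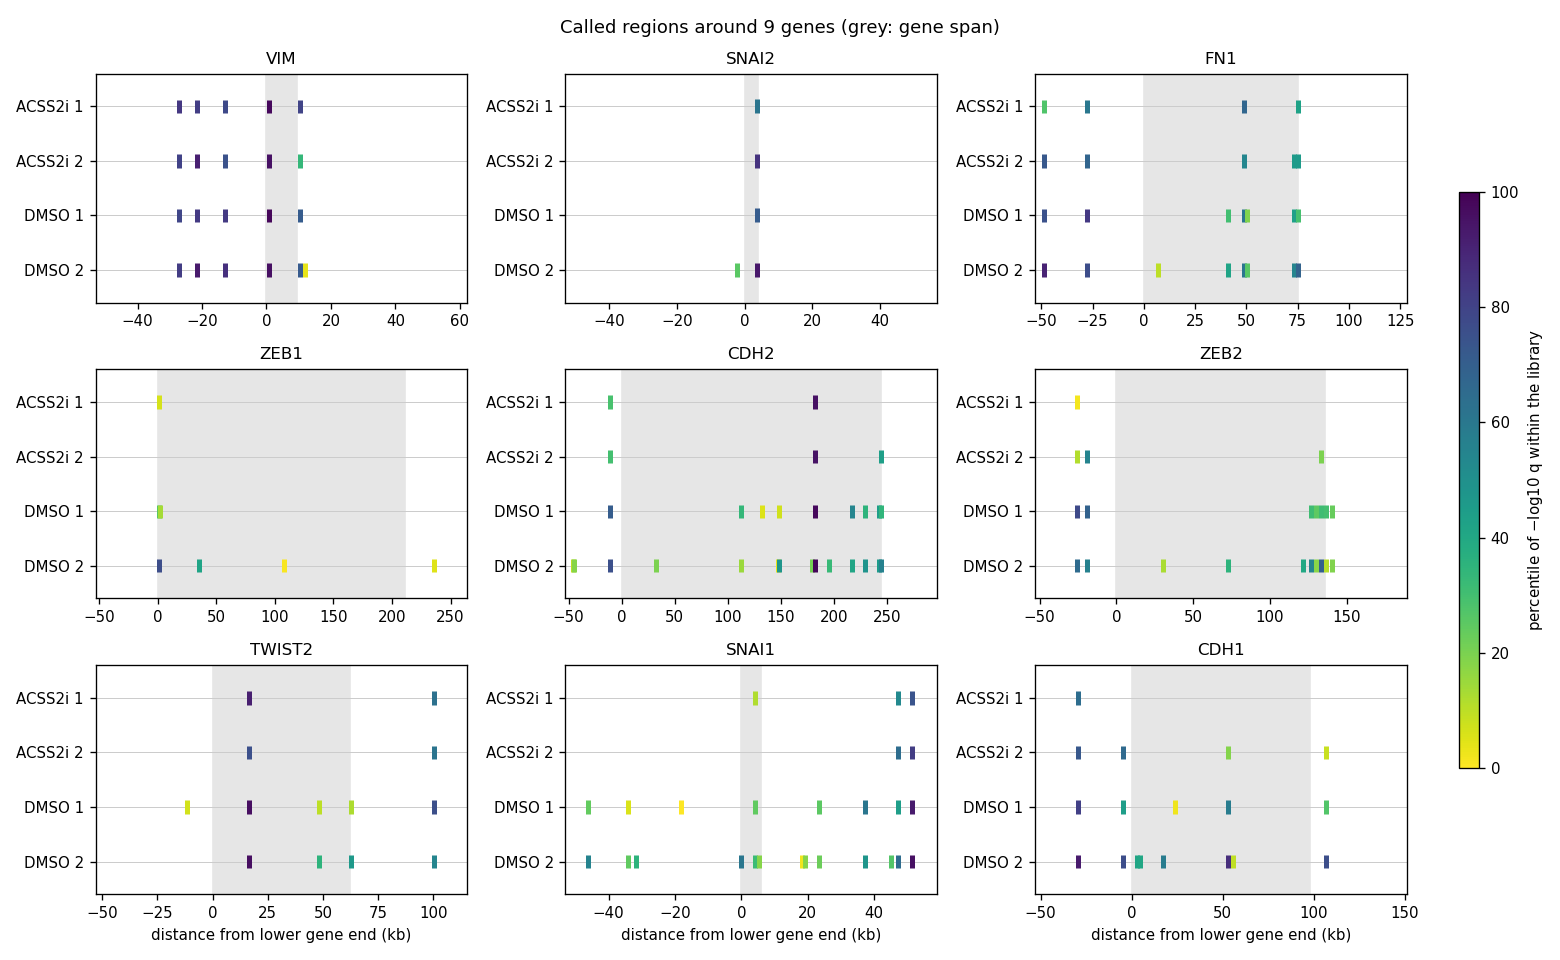
Called regions of 9 loci (TWIST1 has none) by distance from the lower end of the gene in kb, 1 line per library with the ACSS2i libraries above the DMSO libraries; colour gives the percentile of −log10 q in the library, and grey marks the gene. The 5 shared regions of VIM line up in all 4 rows, while several regions inside CDH2 and ZEB2 are marked in 1 DMSO row alone. Of the CDH2 locus regions called in both DMSO libraries, 5 of 8 were called in neither ACSS2i library and 2 in both. For the ZEB2 locus these counts were 4 of 7 and 1. Of all regions called in both DMSO libraries, 33.5% were called in neither ACSS2i library and 42.2% in both.

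Counted over the 10 loci, fewer peaks were called after ACSS2i: 20 and 26 in the ACSS2i libraries, against 51 and 70 in the DMSO libraries. The means were 23 ± 4.24 in ACSS2i and 60.5 ± 13.4 in DMSO (SD, n = 2 each), a difference of -37.5 peaks. The groups did not overlap, and the two-sided exact permutation test gave p = 0.333, the smallest p that 2 against 2 libraries allow. The mean count in ACSS2i was 0.380 of that in DMSO, and over all peaks of the data set this ratio was 0.452. With each list shortened to its 16400 strongest peaks the direction turned, with 20 and 22 peaks in the ACSS2i libraries, against 20 and 19 in the DMSO libraries, a difference of 1.5 (exact permutation p = 0.667). The lower count in the loci was thus not seen among equal numbers of the strongest peaks. Lists of equal length fix the total, so this setting cannot show a fall in peaks over the whole data set. It compares only the part of each list that lies in the loci.

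**Figure D3:**
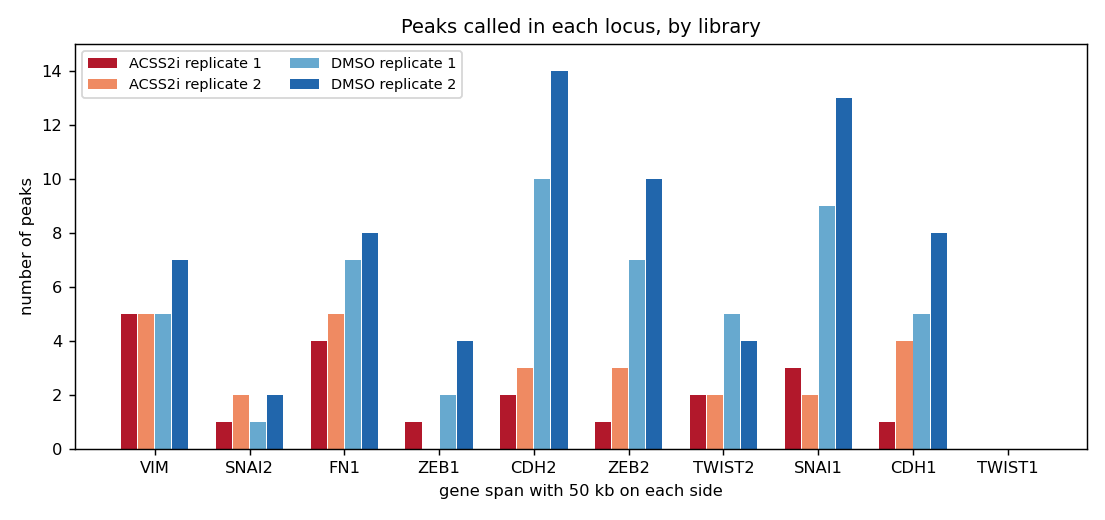
Number of peaks called within each gene span and 50 kb on each side, with bars for ACSS2i replicates 1 and 2 (red, orange) left of DMSO replicates 1 and 2 (light and dark blue). VIM has 5 and 5 peaks in ACSS2i and 5 and 7 in DMSO, whereas CDH2 has 2 and 3 in ACSS2i and 10 and 14 in DMSO.

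Merged over libraries, 44 of the 74 regions were called in both DMSO libraries, beside 58.8% of all regions. Of these 44, 17 (38.6%) were called in neither ACSS2i library, beside 33.5% of all such regions, 18 (40.9%) were called in both, beside 42.2%, and 9 in one of them. The shares in the loci were thus close to those of the whole data set. A further 25 regions were called in DMSO replicate 2 alone and 5 in DMSO replicate 1 alone. No region was called in both ACSS2i libraries and neither DMSO library, a pattern held by 0.857% of the 1400 regions of the data set that were without a DMSO peak. Within 1000 bp of an end of any protein-coding gene, 4 of 14 regions were called in DMSO alone, beside 20.7%, and 6 in all 4 libraries, beside 55.7%. Away from gene ends, 13 of 30 were called in DMSO alone, beside 39.0%, and 12 in all 4, beside 36.5%. Without DMSO replicate 1, 70 regions were called in DMSO and 43 of them in DMSO alone, beside 55.9% of all regions at that setting. With lists of 16400 peaks each, 14 of 29 regions were called in both DMSO libraries, beside 55.9% of all, and 1 of the 14, inside CDH1, in neither ACSS2i library, beside 6.41%.

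Whether a region was called after ACSS2i went with its strength in DMSO, taken as the lower of its 2 DMSO percentiles. All 10 regions above the 75th percentile were called in all 4 libraries, beside 93.0% of all regions of that strength. Between the 50th and 75th, 6 of 8 were called in all 4 and 0 in DMSO alone, beside 53.2% and 14.6%. Between the 25th and 50th, 6 of 14 were called in DMSO alone, beside 47.4%, and below the 25th 11 of 12, beside 76.7%. The median was 18.8 for the 17 regions called in DMSO alone and 76.1 for the 18 called in all 4, with 25.3 and 76.5 over the whole data set. Among the regions called in DMSO alone the highest was 47.8, the SNAI1 region at chr20:50019870-50020532, and among those called in all 4 the lowest was 29.4, the start of FN1.

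**Figure D4:**
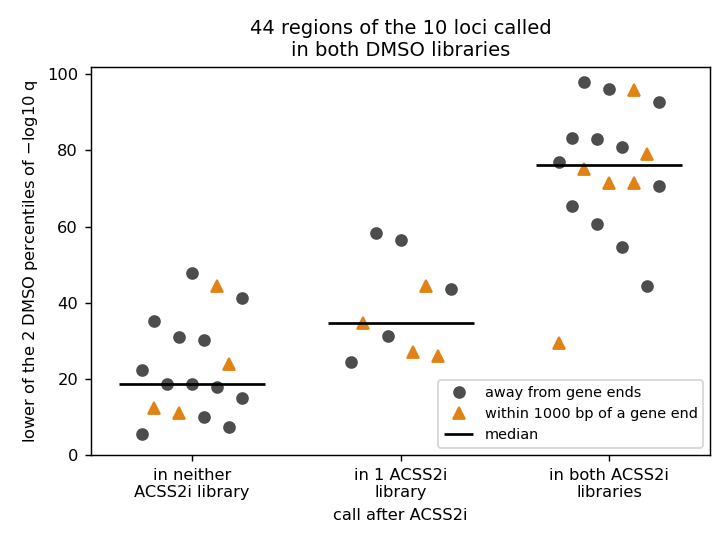
Lower of the 2 DMSO percentiles of −log10 q (vertical axis) for the 44 regions called in both DMSO libraries, split by their call after ACSS2i; triangles lie within 1000 bp of a gene end, circles away from one, and bars are medians. Regions called in neither ACSS2i library reach 47.8, and those called in both start at 29.4.

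Set by their state in DMSO, the 7 genes open at an end in both DMSO libraries (ZEB1, ZEB2, SNAI2, TWIST2, CDH2, VIM and FN1) and the 3 that were not (SNAI1, TWIST1 and CDH1) both had regions around them. Peaks per 100 kb numbered 1.11 and 1.39 in the ACSS2i libraries, against 2.56 and 3.40 in the DMSO libraries, around the 7 open genes. Around the 3 others they numbered 0.979 and 1.47 in the ACSS2i libraries, against 3.43 and 5.14 in the DMSO libraries. Those around the 3 others all came from SNAI1 and CDH1, whose loci also hold parts of RNF114, CDH3 and TANGO6. Of the regions called in both DMSO libraries, 13 of 33 around the open genes and 4 of 11 around the others were called in neither ACSS2i library, and 15 of 33 and 3 of 11 in both. The shares over all regions were 33.5% in neither and 42.2% in both. The median gene with its 50 kb flanks had 0.885 and 1.12 peaks per 100 kb in the ACSS2i libraries, against 1.94 and 2.79 in the DMSO libraries.

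Wider lists of genes tied to the same transition were read by gene-end peaks alone. The shares of all genes given above stand beside each list: 32.5% and 40.7% open in the ACSS2i libraries, against 52.6% and 60.0% in the DMSO libraries. Of all genes open in both DMSO libraries, 18.9% were closed after ACSS2i and 58.0% were open in all 4. Of all 20037 genes, 7950 had no gene-end peak in either DMSO library. Of 21 epithelial genes, 4 and 4 had one in the ACSS2i libraries, against 7 and 11 in the DMSO libraries, and 10 had none in any library, among them EPCAM, the keratins KRT7 and KRT19, and OVOL1 and OVOL2, repressors of the mesenchymal state. Of the 7 open in both DMSO libraries, 3 had none after ACSS2i, beside 18.9% of all genes: JUP, the plakoglobin of junctions, with folds of 5.74 and 5.46 in the DMSO libraries, PKP3, a plakophilin of desmosomes, with 4.63 and 6.44, and GRHL1, a grainyhead-like factor, with 6.82 and 11.8. The other 4 were open in all 4 libraries, beside 58.0%. The highest by the lower of the 2 DMSO percentiles were ELF3, an epithelial ETS factor, with folds of 5.80 and 6.67 in the ACSS2i libraries, against 8.89 and 9.38 in the DMSO libraries, and CDH16, the kidney cadherin, with 4.68 and 4.85 in the ACSS2i libraries, against 4.94 and 7.59 in the DMSO libraries.

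Of 26 mesenchymal genes, 11 and 14 had a gene-end peak in the ACSS2i libraries, against 16 and 18 in the DMSO libraries. The other 8 had none in any library: CDH11, POSTN, COL1A2, COL5A1, MMP2, TAGLN, DDR2 and MSN. Of the 16 open in both DMSO libraries, 10 were open in all 4, beside 58.0% of all genes. Only ITGA5, an integrin chain that binds fibronectin, had none after ACSS2i, beside 18.9%. Its DMSO folds were 3.80 and 5.50. By the same percentile, the highest of those open in all 4 were ACTA2, smooth muscle actin, with folds of 6.06 and 5.58 in the ACSS2i libraries, against 8.42 and 11.5 in the DMSO libraries, and ITGAV, another integrin chain, with 6.56 and 7.24 in the ACSS2i libraries, against 7.86 and 12.8 in the DMSO libraries. Without ACSS2i replicate 2 the count with none was 5 of 16, without ACSS2i replicate 1 it was 2 of 16, and without DMSO replicate 1 it was 3 of 18. Over all genes these settings gave 38.1%, 22.8% and 28.5%. The 1 of 16 mesenchymal genes and the 3 of 7 epithelial genes were not tested against each other, and without DMSO replicate 1 the epithelial count was 7 of 11, beside 28.5%.

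Of 19 partner and cofactor genes, 5 and 9 had a gene-end peak in the ACSS2i libraries, against 11 and 15 in the DMSO libraries. The other 4 had none in any library. Of the 11 open in both DMSO libraries, 5 were open in all 4, beside 58.0% of all genes, and 2 had none after ACSS2i, beside 18.9%: RUNX2, a runt-domain factor, with folds of 4.25 and 8.01 in the DMSO libraries, and YAP1, the Hippo pathway coactivator, with 4.93 and 6.06. KDM1A, the histone demethylase that SNAI1 recruits, had folds of 4.76 and 5.00 in the ACSS2i libraries, against 7.19 and 11.6 in the DMSO libraries. EZH2, the methyltransferase of Polycomb, had folds of 3.64 and 4.12 in the ACSS2i libraries, against 6.16 and 11.3 in the DMSO libraries. Without ACSS2i replicate 2 the count with none was 6 of 11, beside 38.1% of all genes, and without DMSO replicate 1 it was 6 of 15, beside 28.5%.

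Of 22 genes of TGF-beta and BMP signalling, a main inducer of the transition, 9 and 12 had a gene-end peak in the ACSS2i libraries, against 17 and 18 in the DMSO libraries. The other 4 had none in any library. Of the 17 open in both DMSO libraries, 9 were open in all 4, beside 58.0% of all genes, and 5 had none after ACSS2i, beside 18.9%. These were the ligands TGFB1, with folds of 3.79 and 4.99 in the DMSO libraries, and TGFB3, with 4.86 and 7.18, the shared effector SMAD4, with 5.59 and 7.34, and the inhibitors SMAD7, with 5.22 and 6.57, and SKI, with 6.20 and 8.65. The peaks of SMAD7 and SKI lay outside the gene spans. TGFBR2, a receptor of the pathway, had folds of 7.05 and 7.48 in the ACSS2i libraries, against 8.54 and 12.0 in the DMSO libraries. ID1, a target gene of BMP signalling, had 3.43 and 4.51 in the ACSS2i libraries, against 4.59 and 4.82 in the DMSO libraries. Without ACSS2i replicate 2 the count with none was 8 of 17, beside 38.1% of all genes. With lists of equal length the counts with none were 1 of 5 epithelial, 1 of 12 mesenchymal, 0 of 4 partner and 2 of 10 signalling genes, beside 5.29% of all genes.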

How the data were processed

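ATAC-seq peak lists of 4 libraries were used, grouped by the treatment in the labels. Per the labels' protocols, thawed cells were treated with DNase I and their nuclei with Tn5 for 30 min, and read pairs were 150 bases long. Per the submitters' processing notes, reads were handled on hg38 with MACS2 2.1.2, Bowtie2, Picard 2.18.26, Trimmomatic 0.38, deepTools 3.5.0, SAMtools 1.9, bedtools, bcl2fastq 2.17 and DiffBind, listed with no roles or order. How the peak caller was set, whether ends were shifted for Tn5 and how peaks were filtered is not given in the sources used. The deposited columns are a score, a fold, which is the ratio of a summit to its local background, the −log10 p-value and −log10 q-value of the caller, and the offset of the summit. The offset deposited by the authors was used to place each summit, and their score was only checked.

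Rows sharing an interval were counted as 1 peak with the values of the strongest summit, and peaks overlapping by at least 1 bp were merged into regions. Gene spans were read from RefSeq (GRCh38.p14, the build of hg38). Peaks up to 1000 bp from either end of a protein-coding gene were its gene-end peaks, since strand was at hand for only 6 of the 10 genes, and these can belong to a neighbour or a 3′ end. Exon and intron classes were not assigned. The whole-number pileup of each summit and its background were recovered from fold and −log10 p, and 99.99% or more of the summits came back to the authors' −log10 p with an error of at most 0.001. The solving and the counts were tested on simulated data. Python 3.11.15, numpy 2.4.6, pandas 2.3.3, scipy 1.17.1 and matplotlib 3.10.9 were used. Peak number per library was compared by a two-sided exact permutation test, and presence was only counted.

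The genes and lists were chosen with earlier results of these data known. All 10 genes were named, with up to 3 regions of each locus between gene ends by the lower DMSO percentile, every list gene open at an end in both DMSO libraries and in neither ACSS2i library, and up to 2 of those present in all 4 by DMSO strength. List genes named as closed in every library, other regions and CD68 were chosen after their values were seen. Alternatives were a 500 bp window, the start of the gene alone, a 10 kb flank, a −log10 q of at least 5, lists of 16400 peaks each, peaks covering 50% of a region, every row counted, leaving out each library and a replicate block.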

Additional observations from a re-analysis of the deposited data

How the results depend on the processing

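With lists shortened to 16400 peaks each, the peak difference between ACSS2i and DMSO turned to 1.5 (exact permutation p = 0.667). At that setting 2 genes were open in both DMSO libraries, of which 0 were absent after ACSS2i, beside 5.29% of all such genes. Of 14 regions called in both DMSO libraries, 1 (inside CDH1) was absent after ACSS2i, beside 6.41%. Of 4 regions then without a DMSO peak, 1 (at SCREEM1) was called in both ACSS2i libraries, beside 13.8%. The count of genes absent after ACSS2i was 1 of 5 (ZEB2) at the start of the gene alone, beside 18.2% over all genes. It was 1 of 5 (ZEB1) at a −log10 q of at least 5, beside 29.8%. A 10 kb flank left 28 regions in both DMSO libraries, 7 of them in all 4, beside 42.2% of all such regions. Asking peaks to cover 50% of a region left 40 in both DMSO libraries, 6 of them in all 4, beside 18.9%. Leaving out each library in turn gave differences of -47 to -28 peaks, 44 to 70 regions in DMSO, 19 to 43 of them absent after ACSS2i and 18 to 25 in all 4. Over all regions these settings gave 39.0% to 55.9% absent after ACSS2i and 26.7% to 61.0% in all 4. The ends at 70 and 43 were without DMSO replicate 1, which leaves DMSO replicate 2 to define the group. For genes these ranges were 7 to 8, 2 to 3 and 3 to 4. The shares over all genes were 52.3% to 60.0%, 19.4% to 38.1% and 50.6% to 77.2%. The labels give both groups the same replicate numbers but do not say that a number marks a shared batch. With the number as a block the difference stayed at -37.5, with an exact permutation p of 0.5, the smallest that 2 pairs allow. The list counts under other settings were added after the data were seen: genes absent after ACSS2i ranged over 3 to 7 epithelial, 1 to 5 mesenchymal, 2 to 6 partner and 5 to 8 signalling genes when each library was left out. The genes open in DMSO at these settings numbered 7 to 11, 16 to 18, 11 to 15 and 17 to 18. Over all genes the share absent after ACSS2i itself ranged from 19.4% to 38.1%. Read depth is unknown, which limits every statement that a region was absent.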

Other observations

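Noncoding genes in the 10 loci were read by the same gene-end rule. CDH2-AS1, with an end within 1000 bp of the region below CDH2, had a peak in all 4 libraries, as did VIM-AS1, FN1-DT, LOC107986942 beside SNAI2 and SCREEM1 beyond SNAI1. ZEB1-AS1 had a gene-end peak in the DMSO libraries alone, with folds of 3.98 and 7.88, and so did ZEB2-AS1, with 3.63 and 2.67, and LINC02993 near ZEB2, with 3.86 and 3.74. The ZEB1 peak of ACSS2i replicate 1, with a fold of 3.48, lay inside ZEB1-AS1 but past the 1000 bp limit from its end. Of the protein-coding neighbours, TRDMT1 beside VIM had folds of 6.74 and 6.17 in the ACSS2i libraries, against 6.32 and 8.34 in the DMSO libraries, and ATIC beside FN1 had 3.98 and 5.32 in the ACSS2i libraries, against 6.91 and 12.0 in the DMSO libraries. TANGO6 beside CDH1 had no peak in ACSS2i replicate 1 and a fold of 3.03 in ACSS2i replicate 2, against 4.34 and 10.8 in the DMSO libraries. RNF114 beside SNAI1 had none in either ACSS2i library, against 3.93 and 6.72 in the DMSO libraries, and CDH3 beside CDH1 had a gene-end peak only in DMSO replicate 2, at a fold of 9.60. The same region near CDH3 was called just past the 1000 bp limit in ACSS2i replicate 2, at a fold of 4.92, and in DMSO replicate 1, at 5.54. These values are described without a test.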
